A study of Mus musculus with 10 samples.

Results

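The genes described here are 39 genes of the hypoxia response and of glycolysis, 16 of them glycolytic enzymes and 23 other genes that oxygen regulates. They are listed by name and not by a threshold on the values, but the list was chosen with earlier results of these data known. Each gene was read from the brightest of the probe sets that the array's annotation assigns to that gene symbol alone. Such a probe set was present for 34 of the 39 genes, 13 enzymes and 21 other genes, out of 22180 genes measured in the series. Gpi1 and Eno1 had no such probe set, and Aldoa, Bnip3l and Ankrd37 were listed only on probe sets that carry several gene symbols, so these 5 genes have no value here.

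Glycolysis breaks glucose down to pyruvate in the cytosol and yields ATP without oxygen, and lactate dehydrogenase then turns pyruvate into lactate, which leaves the cell through monocarboxylate transporters. When oxygen is plentiful, prolyl hydroxylases of the EGLN family mark the alpha subunits of the hypoxia-inducible factors (HIFs) for destruction. When oxygen falls, the HIFs accumulate and switch on glycolytic enzymes, glucose and lactate transporters, vessel growth factors, carbonic anhydrases and their own hydroxylases. Parts of growing solid tumours, mammary tumours included, lie far from vessels and are known to express these genes.

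Total RNA was measured in 10 mammary tumours of female FVB mice, 1 array per tumour, with 5 Ezh2-/- and 5 Ezh2+/+ tumours. All 10 tumours were Tet-ON PyVmT tumours, in which the MMTV promoter drives the reverse tetracycline transactivator, and doxycycline, begun at 8 to 12 weeks of age, then turns on polyomavirus middle T antigen and Cre recombinase from 1 transgene in mammary epithelial cells. In Ezh2-/- tumours the same Cre deletes conditional alleles of Ezh2, the methyltransferase of the Polycomb repressive complex PRC2, so that vessels, fibroblasts and immune cells keep the gene. Whole tumours were frozen at an endpoint set by tumour burden. The paper reports that tumours without Ezh2 arose later and proliferated less. Onset and growth therefore go with genotype here, and their part in the results was not tested. The titles call the tumours biological replicates without naming the mouse, and if tumours shared a mouse the p-values would measure only the spread between these samples. In bulk RNA of this kind, fewer cells of a type and less RNA per cell cannot be told apart.

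The Ezh2 signal on the log2 scale was 6.46, 6.36, 6.38, 6.42 and 6.50 in Ezh2-/- replicates 1 to 5 and 7.63, 7.66, 6.98, 7.69 and 7.33 in Ezh2+/+ replicates 1 to 5, which limma put at a log2 difference of -1.03 (adjusted p = 0.00077). The genotypes did not overlap, although it is not known here whether the probes cover the exons that Cre removes. Values per array had medians of 4.35 to 4.46 in Ezh2-/- and 4.54 to 4.67 in Ezh2+/+ tumours, and they are used as deposited. The mean log2 level of 10 markers of mammary epithelium, among them Epcam and Cldn3, was 8.67 to 9.15 in Ezh2-/- and 8.64 to 9.04 in Ezh2+/+ tumours, and 0 of the 10 passed in limma (adjusted p under 0.05), with 1 higher and 2 lower at an unadjusted p under 0.05. Markers of other cells did differ. Higher in Ezh2-/- tumours were 8 of 10 fibroblast markers (mean log2 level 7.39 to 8.59 against 5.64 to 7.14), 6 of 12 endothelial, 3 of 10 macrophage (7.00 to 7.68 against 6.59 to 7.14) and 2 of 9 adipocyte markers (5.76 to 8.15 against 5.29 to 6.38). Lower were 3 of 9 neutrophil markers (4.18 to 4.41 against 4.36 to 4.89) and 1 of 2 measured erythroid markers (3.56 to 3.99 against 4.08 to 4.46). These 2 sets had mean levels near or below the array medians, and 3 of the 9 neutrophil markers had positive log2 fold changes. Without the 40% dimmest genes, 535 genes of the series were called lower, against 1676 with all genes, so low signal limits these calls. The part that cells of all these types have in the results on the 39 genes was not tested.

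Of the 34 measured genes, 7 were lower in Ezh2-/- tumours (20.6%) and 0 were higher in limma (adjusted p under 0.05), against 7.56% lower and 7.29% higher among all 22180 genes. With the methods' own analysis of variance after adjustment, or with arrays centred on their medians, 4 of the 34 were lower instead of 7, and 0 and 2 were higher. Lower calls among all genes fell under both settings too, with centring from 1676 to 927, so their fall was not particular to the 34. Higher calls among all genes went from 1617 to 862 with the methods' own test and to 5219 with centring. Leaving out 1 tumour gave 4 to 9 of the 34 lower, with 4 without Ezh2-/- replicate 1, 3 or 4 or Ezh2+/+ replicate 4 and 9 without Ezh2+/+ replicate 5. Over all genes, 983 to 1920 were called lower in these fits. At an unadjusted p under 0.05, 10 of the 34 were lower and 2 higher, against 15.6% and 18% of all genes. The genes that fell were 3 glycolytic enzymes (Tpi1, Pgk1 and Pgam1), the lactate transporter Slc16a3, the pyruvate dehydrogenase kinase Pdk1, the oxygen sensor Egln3 and the histone demethylase Kdm3a. Their fall ranged from 1.54-fold for Kdm3a to 3.15-fold for Egln3. In 5 of the 34 genes every Ezh2-/- tumour lay below every Ezh2+/+ tumour, a share of 14.7% against 6.63% of all genes, and in 0 of the 34 did every Ezh2-/- tumour lie above, against 5.05%. The median log2 fold change was -0.24 over the 34 genes and 0.026 over all genes.

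**Figure D1:**
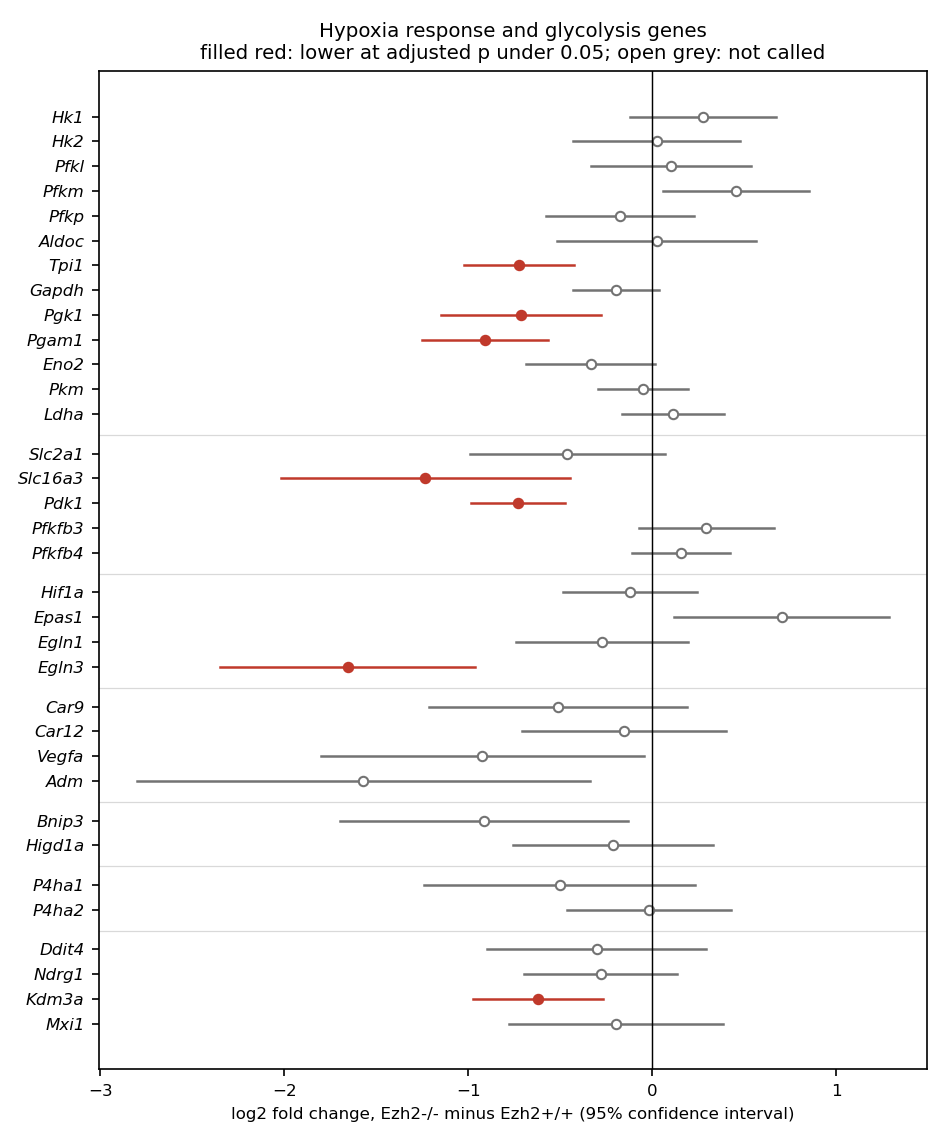
Log2 fold change, Ezh2-/- over Ezh2+/+, of the 34 measured genes with 95% confidence intervals from limma (n = 5 tumours a genotype), with glycolytic enzymes and other oxygen-regulated genes apart. The 7 genes called lower lie to the left of 0, with Egln3 at -1.66, and 0 genes are called higher.

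The DNA upstream of these genes was read from RefSeq for the letters that HIFs bind, since several of them are textbook HIF targets. A promoter window, from 250 bases before to 50 after the start of the first listed transcript (RefSeq, GRCm38.p6), was at hand for 36 of the 39 genes and not for Epas1, Ndrg1 and Bnip3l. The core letters ACGTG or GCGTG, on either strand, stood in 27 of these 36 windows (75.0%) and in 43.8% of the windows of all 27025 genes, the palindrome CACGTG being found on both strands. ACGTG alone stood in 20 of 36 windows (55.6%) against 19.7% of all windows. Both cores hold the letters CG, and the windows of all genes were not matched to these 36 in base composition. Either core stood in 6 of the 7 windows of the genes that fell (85.7%) and in 19 of 25 windows of measured genes that were not called (76.0%), so that the letters were common in both. Tpi1 had neither core in its window, which says nothing of HIF binding elsewhere. The stretches upstream of the start that hold the core in the 6 other genes that fell, and in Ldha, whose window held 7 cores, the most of the 36, are shown to let the sites be compared, each read 5′ to 3′ on the strand of its gene with every core in the stretch in capitals (CACGT is ACGTG on the opposite strand). The distance given is that of the ACGTG, or where there is none the GCGTG, nearest the start, and cores outside these stretches are not shown.
Pgk1, chrX:106186951-106186991, plus strand, core 131 bases before the start: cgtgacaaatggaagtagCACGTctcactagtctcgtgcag
Pgam1, chr19:41911739-41911779, plus strand, core 114 bases before the start: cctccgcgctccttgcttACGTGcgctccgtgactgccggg
Slc16a3, chr11:120949035-120949066, plus strand, core 14 bases before the start: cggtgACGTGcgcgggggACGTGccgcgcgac
Pdk1, chr2:71873128-71873168, plus strand, core 78 bases before the start: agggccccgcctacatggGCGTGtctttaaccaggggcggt
Egln3, chr12:54204081-54204121, minus strand, core 229 bases before the start: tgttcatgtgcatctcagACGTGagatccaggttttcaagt
Kdm3a, chr6:71632922-71632962, minus strand, core 27 bases before the start: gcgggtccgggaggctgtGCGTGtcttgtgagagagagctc
Ldha, chr7:46845752-46845792, plus strand, core 34 bases before the start: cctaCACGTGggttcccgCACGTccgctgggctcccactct
Ldha, with the most cores, was not among the genes that fell, and its levels are given with the other enzymes. No binding was measured here, and a match is a description of letters only.

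Among the 13 measured enzymes, 3 enzymes of the middle of glycolysis were lower in Ezh2-/- tumours, namely triose phosphate isomerase (Tpi1), phosphoglycerate kinase (Pgk1) and phosphoglycerate mutase (Pgam1). These 3 of 13 (23.1%) stand beside 7.56% lower among all genes. They were also the only enzymes of the list whose genotypes did not overlap. Of all genes, 6.63% had every Ezh2-/- tumour below every Ezh2+/+ tumour. The other 10 enzymes were not called, and the median log2 fold change of the 13 was -0.050, with a range of -0.91 to 0.46. Centring each array on its median moved that median to 0.12, because this scaling raised the median of all genes from 0.026 to 0.20.

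Tpi1, which interconverts the 3-carbon sugars that aldolase makes, had log2 levels of 10.13, 10.26, 9.85, 9.93 and 9.72 in Ezh2-/- replicates 1 to 5 and of 11.03, 10.58, 10.67, 10.78 and 10.44 in Ezh2+/+ replicates 1 to 5. Every Ezh2-/- tumour lay below every Ezh2+/+ tumour. The means were 9.98 ± 0.22 and 10.70 ± 0.22 (SD, n = 5 each), a 1.65-fold fall (log2 fold change -0.72, standard error 0.14, adjusted p = 0.00688 from limma). Tpi1 was called lower when any 1 of the 10 tumours was left out.

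Pgam1, which moves the phosphate within phosphoglycerate, had log2 levels of 8.13, 7.77, 7.94, 8.07 and 7.80 in Ezh2-/- replicates 1 to 5 and of 9.25, 8.49, 8.86, 9.12 and 8.52 in Ezh2+/+ replicates 1 to 5. The genotypes did not overlap, and the means of 7.94 ± 0.16 and 8.85 ± 0.34 (SD, n = 5 each) differed 1.88-fold (log2 fold change -0.91, standard error 0.16, adjusted p = 0.00425 from limma). Pgam1 was likewise called without any 1 tumour. A second, dimmer probe set of Pgam1 gave a log2 fold change of -0.51, with an adjusted p of 0.104 from limma over all probe sets. Phosphoglycerate mutase has processed copies in the mouse genome, as have Gapdh and other enzymes, and whether probes are shared with them is not known here.

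Pgk1, the first ATP-forming step of the pathway, had log2 levels of 9.73, 9.76, 9.43, 9.45 and 9.82 in Ezh2-/- replicates 1 to 5 and of 10.85, 9.96, 10.20, 10.87 and 9.88 in Ezh2+/+ replicates 1 to 5. The lowest Ezh2+/+ tumour was only slightly above the highest Ezh2-/- tumour, whereas Ezh2+/+ replicates 1 and 4 stood well above all others. The means were 9.64 ± 0.19 and 10.35 ± 0.48 (SD, n = 5 each), a 1.64-fold fall (log2 fold change -0.71, standard error 0.20, adjusted p = 0.0347 from limma). The call was less firm than those of Tpi1 and Pgam1. It was kept in 3 of the 10 fits that leave out 1 tumour, and was lost without Ezh2-/- replicate 1, 2, 3 or 4 or Ezh2+/+ replicate 1, 3 or 4, with adjusted p of 0.0506 to 0.0827 from limma. It was also lost with quantile normalization, with arrays centred on their medians and with the methods' own analysis of variance after adjustment.

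The first steps of the pathway were not called. Hk1 and Hk2, the hexokinases that trap glucose in the cell, had log2 fold changes of 0.27 (adjusted p = 0.309 from limma) and 0.025 (adjusted p = 0.947). Of the phosphofructokinases, which commit sugar to glycolysis, Pfkl had 0.10, Pfkp -0.17 and Pfkm 0.46. Pfkm, the muscle form, was highest in Ezh2-/- replicate 1, at 7.21 on the log2 scale, a tumour in which skeletal muscle markers were also highest, as described below. The aldolase Aldoc was at 10.37 ± 0.17 and 10.34 ± 0.64 (SD, n = 5 each), and its confidence interval of -0.52 to 0.57 leaves a change of either sign possible. None of these 6 enzymes passed in limma under the settings described at the end, except that Pfkm was called higher with arrays centred on their medians or with the replicate number as a block, and Hk1 when Ezh2-/- replicates 1 and 5 were left out together.

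The later steps outside Pgk1 and Pgam1 were not called either. Gapdh oxidises glyceraldehyde phosphate and lies between Tpi1 and Pgk1 in the pathway. Its brightest probe set had a log2 fold change of -0.20 (adjusted p = 0.218 from limma). With limma over all probe sets, the second had -0.20 (adjusted p = 0.225) and a dimmer one -0.55 (adjusted p = 0.0216). The enolase Eno2 had -0.33 (adjusted p = 0.170), and the pyruvate kinase Pkm had -0.050 with a confidence interval of -0.30 to 0.20. Ldha, which makes lactate, had log2 levels of 6.07, 6.14, 5.86, 6.20 and 6.49 in Ezh2-/- replicates 1 to 5 and of 6.18, 6.07, 6.02, 6.15 and 5.79 in Ezh2+/+ replicates 1 to 5. Its genotypes overlapped throughout, with a log2 fold change of 0.11 (confidence interval -0.16 to 0.39, adjusted p = 0.563 from limma). On this probe set the interval excludes a fall of the size measured for Tpi1, Pgk1 or Pgam1. Their log2 fold changes were -0.72, -0.71 and -0.91. The probe set was the only one of Ldha and was dim, with means of 6.15 in Ezh2-/- and 6.04 in Ezh2+/+ tumours. Those of Pkm were 11.32 and 11.37. How fully this dim probe set reports the gene is not known here.

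**Figure D2:**
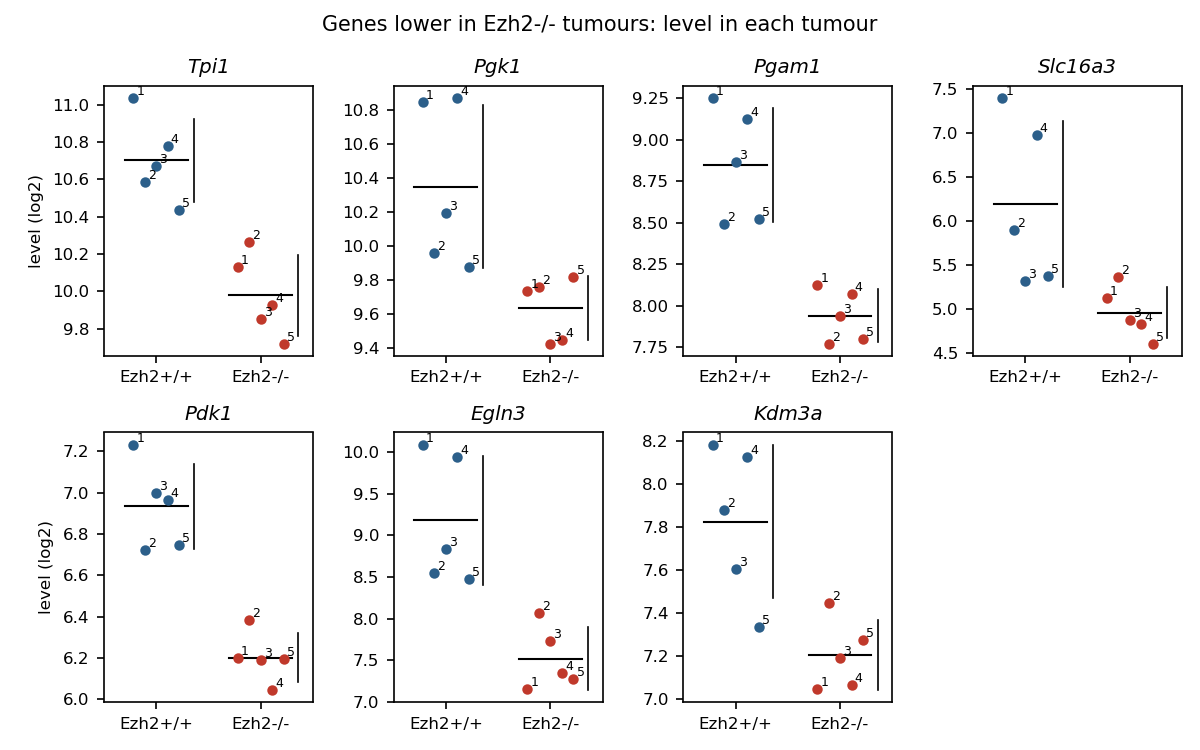
Log2 level of each of the 7 genes called lower, in every tumour, by genotype. Points are tumours labelled with their replicate number, horizontal bars are means and vertical lines ± SD (n = 5); Ezh2+/+ replicates 1 and 4 are the highest points in Tpi1, Pgk1, Pgam1, Slc16a3, Egln3 and Kdm3a, and the genotypes overlap in Slc16a3 and Kdm3a.

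Of 5 genes that carry glucose and lactate or steer the flow of carbon, 2 were lower (40%, against 7.56% of all genes). Slc16a3, the transporter MCT4 that exports lactate, had log2 levels of 5.12, 5.36, 4.87, 4.83 and 4.61 in Ezh2-/- replicates 1 to 5 and of 7.39, 5.90, 5.31, 6.97 and 5.37 in Ezh2+/+ replicates 1 to 5. Ezh2+/+ replicates 1 and 4 were far above the rest, and Ezh2+/+ replicate 3 lay within the Ezh2-/- range. The means were 4.96 ± 0.29 and 6.19 ± 0.95 (SD, n = 5 each), a 2.35-fold fall (log2 fold change -1.23, standard error 0.36, adjusted p = 0.0405 from limma). The call was kept in 3 of 10 fits that leave out 1 tumour and lost without any 1 Ezh2-/- tumour or without Ezh2+/+ replicate 1 or 4, with adjusted p of 0.0574 to 0.0860 from limma, and also under the same 3 settings that ended the call of Pgk1.

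Pdk1, which phosphorylates pyruvate dehydrogenase and so keeps pyruvate out of the mitochondrial citric acid cycle, had log2 levels of 6.20, 6.38, 6.19, 6.04 and 6.20 in Ezh2-/- replicates 1 to 5 and of 7.23, 6.72, 7.00, 6.97 and 6.75 in Ezh2+/+ replicates 1 to 5. No Ezh2-/- tumour reached the lowest Ezh2+/+ tumour. With means of 6.20 ± 0.12 and 6.93 ± 0.21 (SD, n = 5 each), Pdk1 fell 1.66-fold (log2 fold change -0.73, standard error 0.12) and had the smallest adjusted p of the 34 genes, 0.00283 from limma. It was called without any 1 tumour. A second probe set of Pdk1 had a mean log2 level of only 1.74. Its log2 fold change was 0.10, with an adjusted p of 0.541 from limma over all probe sets. The close relatives Pdk2, Pdk3 and Pdk4 had log2 fold changes of 0.25, 0.075 and 0.16 and were not called.

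Slc2a1, the glucose transporter GLUT1, had log2 levels of 9.25, 9.66, 9.40, 9.42 and 9.01 in Ezh2-/- replicates 1 to 5 and of 10.29, 9.53, 9.63, 10.55 and 9.06 in Ezh2+/+ replicates 1 to 5. Only Ezh2+/+ replicates 1 and 4 were above the Ezh2-/- range, and the log2 fold change of -0.46 (confidence interval -0.99 to 0.07, adjusted p = 0.206 from limma) was not called. Pfkfb3 and Pfkfb4 set the level of the fructose bisphosphate that activates phosphofructokinase, not of the one it makes. They had log2 fold changes of 0.29 (adjusted p = 0.240 from limma) and 0.16 (adjusted p = 0.384).

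Among the oxygen sensors and the HIF subunits themselves, the hydroxylase Egln3 fell and Hif1a, Epas1 and Egln1 were not called. Egln3, a prolyl hydroxylase and a HIF target in its own right, had log2 levels of 7.16, 8.07, 7.74, 7.35 and 7.28 in Ezh2-/- replicates 1 to 5 and of 10.08, 8.55, 8.84, 9.94 and 8.47 in Ezh2+/+ replicates 1 to 5. The genotypes did not overlap, and within Ezh2+/+ tumours replicates 1 and 4 were again the highest. The means of 7.52 ± 0.38 and 9.18 ± 0.78 (SD, n = 5 each) gave a 3.15-fold fall, the largest of the 34 genes (log2 fold change -1.66, standard error 0.32, adjusted p = 0.00721 from limma). Egln3 was called without any 1 tumour. Its relative Egln1, the main oxygen sensor of most cells, had a log2 fold change of -0.27 (adjusted p = 0.394 from limma).

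Hif1a, the subunit whose protein rather than RNA is the usual point of control by oxygen, had log2 levels of 7.76, 8.06, 7.89, 8.15 and 7.48 in Ezh2-/- replicates 1 to 5 and of 8.49, 7.92, 8.03, 7.84 and 7.65 in Ezh2+/+ replicates 1 to 5. The genotypes overlapped, with a log2 fold change of -0.12 (confidence interval -0.48 to 0.24, adjusted p = 0.645 from limma). A second, dimmer probe set gave -0.38, with an adjusted p of 0.0936 from limma over all probe sets. HIF protein was not measured on these arrays.

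Epas1, which encodes the HIF-2 alpha subunit and is abundant in endothelium, had log2 levels of 6.94, 7.16, 7.31, 7.26 and 6.22 in Ezh2-/- replicates 1 to 5 and of 7.00, 6.41, 6.41, 6.08 and 5.45 in Ezh2+/+ replicates 1 to 5. It was the largest positive value of the 34 genes, at a log2 fold change of 0.71 (standard error 0.27), but with 1 low Ezh2-/- tumour and 1 high Ezh2+/+ tumour it was not called (adjusted p = 0.0911 from limma). It passed as higher when either Ezh2-/- replicate 5 or Ezh2+/+ replicate 1 was left out, with log2 fold changes of up to 0.90, and also with array weights, with arrays centred on their medians and with the replicate number as a block. The mean log2 level of 12 endothelial markers, such as Cdh5 and Pecam1, was 5.87 to 6.34 in Ezh2-/- and 5.35 to 5.71 in Ezh2+/+ tumours, with no overlap and 6 of 12 called higher. The part of vessel cells in the Epas1 value was not tested.

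None of the 4 genes of acid-base balance and vessel signals was called, and their log2 fold changes were all negative on the values as deposited, although Car12 turned positive with arrays centred on their medians. Vegfa, the chief vessel growth factor, had log2 levels of 7.27, 7.62, 6.72, 7.20 and 6.91 in Ezh2-/- replicates 1 to 5 and of 9.34, 7.56, 7.70, 8.95 and 6.78 in Ezh2+/+ replicates 1 to 5. Only Ezh2+/+ replicates 1 and 4 were clearly above the Ezh2-/- tumours, while Ezh2+/+ replicate 5 was near their lower end. The log2 fold change was -0.92 (confidence interval -1.80 to -0.05, adjusted p = 0.132 from limma), and Vegfa was called lower only in the fit without Ezh2+/+ replicate 5.

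Adm, the vasodilator peptide adrenomedullin, had the widest spread of the 34 genes, with log2 levels of 4.86, 5.81, 4.43, 4.60 and 5.20 in Ezh2-/- replicates 1 to 5 and of 8.59, 5.85, 5.70, 7.59 and 5.04 in Ezh2+/+ replicates 1 to 5. Its log2 fold change, -1.57 with a standard error of 0.57, was not called (adjusted p = 0.0777 from limma), and it passed only without Ezh2+/+ replicate 5 or with array weights. Car9, the carbonic anhydrase at the cell surface that is widely used as a hypoxia marker, had log2 levels of 5.39, 5.97, 5.31, 5.04 and 5.52 in Ezh2-/- replicates 1 to 5 and of 6.84, 5.27, 5.38, 6.84 and 5.47 in Ezh2+/+ replicates 1 to 5. Ezh2+/+ replicates 1 and 4 stood alone at the top, the other 3 Ezh2+/+ tumours lay within the Ezh2-/- range, and the log2 fold change of -0.51 was not called (adjusted p = 0.286 from limma). A second, dimmer probe set of Car9 gave -0.084, with an adjusted p of 0.760 from limma over all probe sets. Car12, a second carbonic anhydrase of the cell surface, had -0.15 (adjusted p = 0.705 from limma).

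The mitochondrial genes and the collagen hydroxylases were not called. Bnip3, which marks mitochondria for removal, had log2 levels of 6.49, 6.35, 6.04, 5.90 and 6.50 in Ezh2-/- replicates 1 to 5 and of 8.67, 6.83, 6.61, 7.47 and 6.27 in Ezh2+/+ replicates 1 to 5. A single Ezh2+/+ tumour, replicate 5, lay within the Ezh2-/- range, and the log2 fold change of -0.92 had an adjusted p of 0.0998 from limma. Higd1a, a small mitochondrial protein induced by hypoxia, had a log2 fold change of -0.21. P4ha1 and P4ha2, which hydroxylate collagen, had log2 fold changes of -0.50 and -0.016, and P4ha1 was at 7.99 and 7.51 in Ezh2+/+ replicates 1 and 4 against 5.87 to 6.52 in the other 8 tumours.

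Of the 4 remaining targets, 1 was lower, Kdm3a (25.0%, against 7.56% of all genes). Kdm3a, a demethylase of histone H3 lysine 9 that HIF induces, had log2 levels of 7.05, 7.45, 7.19, 7.07 and 7.28 in Ezh2-/- replicates 1 to 5 and of 8.18, 7.88, 7.61, 8.13 and 7.33 in Ezh2+/+ replicates 1 to 5. The groups overlapped only through Ezh2+/+ replicate 5, which was below Ezh2-/- replicate 2. The means were 7.20 ± 0.16 and 7.83 ± 0.36 (SD, n = 5 each), a 1.54-fold fall (log2 fold change -0.62, standard error 0.16, adjusted p = 0.0261 from limma). The call was lost without Ezh2-/- replicate 1, 3 or 4 or Ezh2+/+ replicate 4, with adjusted p of 0.0501 to 0.0659 from limma, and also with arrays centred on their medians or with the methods' own analysis of variance after adjustment. Ddit4, an inhibitor of mTOR signalling, Ndrg1, a stress-induced gene, and Mxi1, an antagonist of Myc, had log2 fold changes of -0.30, -0.28 and -0.20 and were not called.

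A second feature of these genes was how unevenly they were expressed among Ezh2+/+ tumours, seen after the values were known and given as a description without a test. In 31 of the 34 genes the SD was larger among Ezh2+/+ than among Ezh2-/- tumours, a share of 91.2% against 51.8% of all genes, and in the 21 genes other than enzymes this held for 21. Ezh2+/+ replicates 1 and 4 were both above the other 8 tumours in 20 of the 34 genes (58.8%), 7 of 13 enzymes and 13 of 21 other genes, against 2.82% of all genes. The mean log2 level of the 21 other genes was 7.99 in Ezh2+/+ replicate 1 and 7.59 in replicate 4. It was 6.92, 7.00 and 6.52 in Ezh2+/+ replicates 2, 3 and 5, and 6.65 to 6.97 in the 5 Ezh2-/- tumours. On this measure 3 of the 5 Ezh2+/+ tumours were close to or within the range of the Ezh2-/- tumours.

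**Figure D3:**
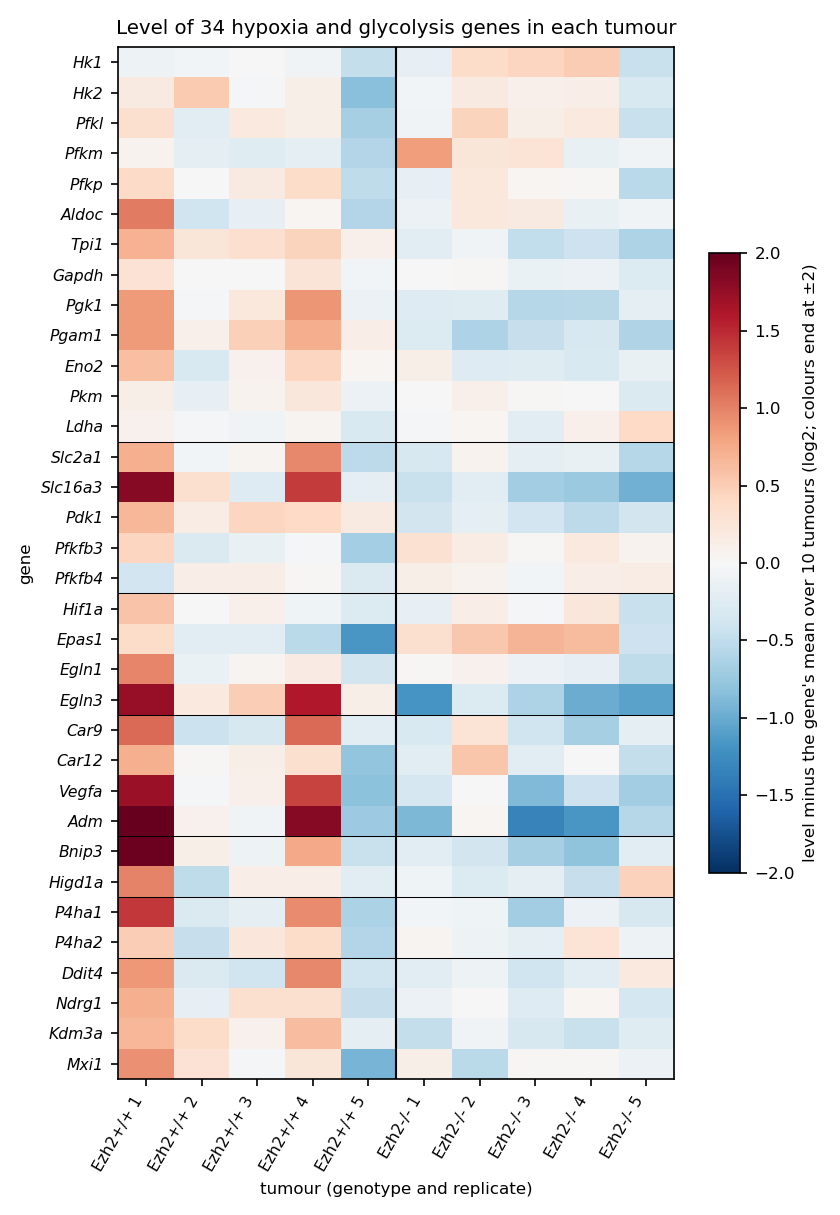
Log2 level of each of the 34 genes in each of the 10 tumours, as the difference from the gene's mean over all tumours (colour scale in log2 units, clipped at its ends). The columns of Ezh2+/+ replicates 1 and 4 are high across most genes other than enzymes, where their mean log2 levels were 7.99 and 7.59.

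With Ezh2+/+ replicates 1 and 4 both left out, a choice made after these values were seen, 4 of the 7 genes were still called lower. These were Tpi1 (log2 fold change -0.58, adjusted p = 0.0312 from limma), Pgam1 (-0.68, adjusted p = 0.0161), Pdk1 (-0.62, adjusted p = 0.0146) and Egln3 (-1.10, adjusted p = 0.0116). Pgk1 (-0.37, adjusted p = 0.104), Slc16a3 (-0.57, adjusted p = 0.0797) and Kdm3a (-0.40, adjusted p = 0.106) were no longer called, and the median log2 fold change of the 21 other genes went from -0.30 to 0.015. Vegfa, Adm and Bnip3 then had log2 fold changes of -0.20, -0.55 and -0.31. Car9, P4ha1, P4ha2, Ddit4 and Mxi1 turned positive, at 0.077, 0.12, 0.27, 0.21 and 0.13, none of them called. Pfkfb3 was called higher in that fit (log2 fold change 0.52, adjusted p = 0.0406 from limma). In the 2 tumours left out, the mean level of the mammary epithelium markers was inside the range of the other 8, 8.64 to 9.15, and that of the endothelial markers was 5.71 and 5.35, and whether either has a part in their high levels was not tested.

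Genes of the same pathways outside the 39 were listed from what is known of the pathways. Of 34 further measured genes of glycolysis and pyruvate use, 2 were higher (5.88%) and 0 lower in limma, against 7.29% and 7.56% of all genes, and the median log2 fold change was 0.15. At an unadjusted p under 0.05 in limma 5 were higher and 3 lower, and the methods' own test after adjustment called 0 lower. The higher ones were Adpgk, an ADP-dependent glucokinase, with a log2 fold change of 0.35 (adjusted p = 0.0369 from limma), and Bpgm, which makes bisphosphoglycerate, with 0.43 (adjusted p = 0.0431). These 2 calls were kept in 2 and 1 of the 10 fits that leave out 1 tumour. The call of Adpgk was kept only without Ezh2-/- replicate 5 or Ezh2+/+ replicate 4, that of Bpgm only without Ezh2+/+ replicate 2, and the adjusted p otherwise reached 0.0842 and 0.0919. Both calls ended with quantile normalization and cyclic loess, and that of Bpgm also with the replicate number as a block and with the methods' own test after adjustment. Of 15 further genes of oxygen sensing, among them Vhl, Arnt, Egln2 and the asparagine hydroxylase Hif1an, 0 passed in either direction, with 3 higher and 1 lower at an unadjusted p under 0.05 in limma and 1 higher with the methods' own test after adjustment.

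Of 32 further oxygen-regulated genes, 2 were lower (6.25%) and 0 higher, shares no larger than the 7.56% and 7.29% of all genes, with 6 lower and 1 higher at an unadjusted p under 0.05 in limma. Ero1a, which oxidises proteins in the endoplasmic reticulum, had log2 levels of 8.68, 8.95, 8.89, 8.85 and 8.41 in Ezh2-/- replicates 1 to 5 and of 9.82, 9.65, 9.76, 10.22 and 9.13 in Ezh2+/+ replicates 1 to 5, a 1.94-fold fall (adjusted p = 0.00616 from limma). Fam162a, a mitochondrial protein induced by hypoxia, had log2 levels of 7.88, 8.01, 7.75, 7.69 and 8.28 in Ezh2-/- replicates 1 to 5 and of 9.77, 8.59, 8.56, 9.21 and 8.40 in Ezh2+/+ replicates 1 to 5, a 1.98-fold fall (adjusted p = 0.0183 from limma). In both genes the genotypes did not overlap, and both were called without any 1 tumour and without Ezh2+/+ replicates 1 and 4, but Fam162a was not called with the methods' own test after adjustment. The median log2 fold change of these 32 genes was -0.043. Ezh2+/+ replicates 1 and 4 were both above the other 8 tumours in 9 of the 32 (28.1%), and in 1 of the 34 further genes of glycolysis (2.94%).

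Markers of skeletal muscle, a glycolytic tissue, were high in 2 Ezh2-/- tumours. Their mean log2 level over 14 genes, such as Acta1 and Mb, was 8.48 in Ezh2-/- replicate 1, 7.29 in Ezh2-/- replicate 5 and 4.64 to 5.19 in the other 8 tumours, and 0 of the 14 were called between genotypes in limma, with 6 higher at an unadjusted p under 0.05. The muscle enolase Eno3 was high in the same tumours, at 9.26 and 7.58 on the log2 scale against 5.58 to 6.09 in the other 8. So did the muscle phosphoglycerate mutase Pgam2, at 6.03 and 5.02 against 2.95 to 3.93. The log2 fold changes of Eno3 and Pgam2 were 1.09 and 0.81 over all tumours, neither called, and 0.068 and -0.027 without these 2 tumours.

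**Figure D4:**
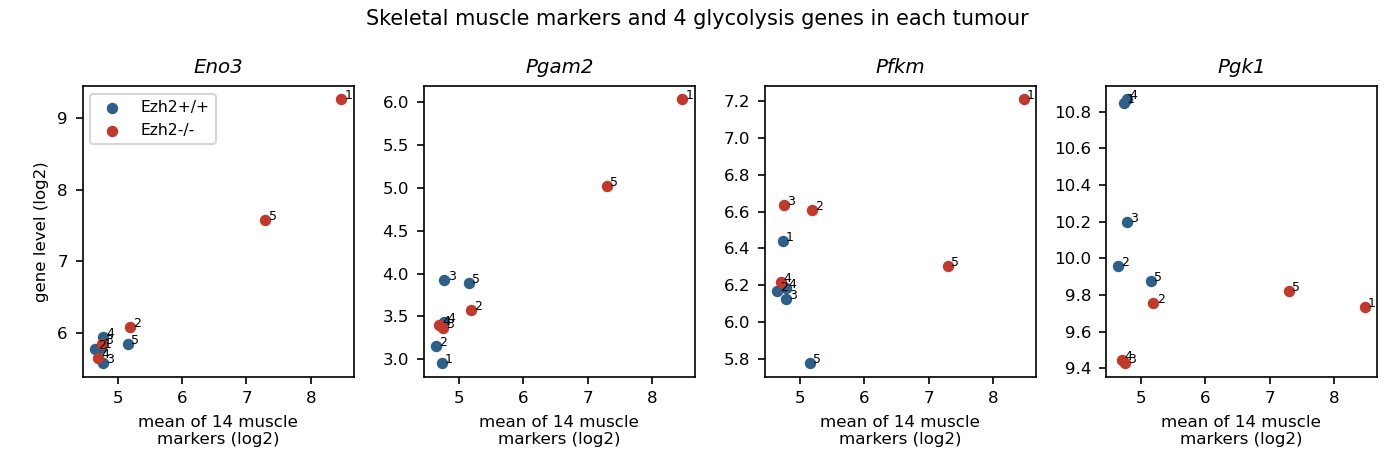
Log2 level of the muscle isoforms Eno3, Pgam2 and Pfkm and of Pgk1 (y axes) against the mean log2 level of 14 skeletal muscle markers (x axis), with 1 point per tumour coloured by genotype and labelled by replicate number. Ezh2-/- replicates 1 and 5 lie apart on the x axis, at 8.48 and 7.29, and are the highest tumours in Eno3 and Pgam2 but not in Pgk1. In Pfkm replicate 1 is the highest tumour and replicate 5 lies among the others.

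Without Ezh2-/- replicates 1 and 5, a choice also made after the values were seen, Tpi1, Pgk1, Pgam1, Pdk1 and Egln3 were called lower, with log2 fold changes of -0.69, -0.81, -0.92, -0.73 and -1.45. Slc16a3 (-1.17, adjusted p = 0.0902 from limma) and Kdm3a (-0.59, adjusted p = 0.0614) were not called in that fit. Hk1 (0.57, adjusted p = 0.0171 from limma) and Epas1 (0.97, adjusted p = 0.0342) were then called higher.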

How the data were processed

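The authors hybridised total RNA of 10 tumours to Affymetrix Mouse Gene 2.0 ST arrays and normalised the scans per gene with Affymetrix Expression Console. Genotypes were compared by the authors with Transcriptome Analysis Console. The deposited values, 0.595 to 13.2, were taken as log2 from their range, since neither the log base, the algorithm nor the genome build is given in the sources used here. Of 41345 probe sets, 23521 carried 1 gene symbol, 1820 several and 16004 were not listed in the array's annotation. Those with 1 symbol, 23328 of which matched a RefSeq gene, gave 22180 genes, 1082 of them with several probe sets, of which the brightest over all arrays was used. Arrays correlated at 0.965 to 0.982 within and 0.930 to 0.962 between genotypes, and 0 pairs were identical.

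Genotypes were compared with limma 3.58.1 (R 4.3.3), two-sided, with Benjamini-Hochberg adjustment over all genes, and a gene was called at an adjusted p under 0.05. Confidence intervals are 95%. The test was checked on simulated data. The number of arrays limits the precision. Promoter windows came from RefSeq (GRCm38.p6). Figures used matplotlib 3.10.9 (Python 3.11.15).

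The genes and lists were chosen with earlier results of these data known. Any of the 39 genes could be named, with full values for those called and for Hif1a, Epas1, Vegfa, Slc2a1, Car9, Ldha and Pdk1, as could up to 5 called genes of each wider list, up to 2 bright markers of each cell type, and Ezh2. The full values of Adm and Bnip3 and the naming of Eno3, Pgam2, Pdk2, Pdk3, Pdk4, Vhl, Arnt, Egln2 and Hif1an were chosen after values were seen. Alternatives were quantile normalization, cyclic loess and median centring of the arrays, array weights, a robust prior with an intensity trend, the methods' own analysis of variance, all probe sets in place of 1 per gene, averaged probe sets, a fit without the 40% of genes that were dimmest, a block for the replicate number, and leaving out each tumour. Leaving out Ezh2+/+ replicates 1 and 4 together, or Ezh2-/- replicates 1 and 5, was added after the data were seen.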

Additional observations from a re-analysis of the deposited data

Results flagged for a closer look

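Among Ezh2+/+ tumours, Hk1 was low in replicate 5, at a log2 level of 6.91, while the other 4 lay between 7.28 and 7.38. Pkm, a pyruvate kinase, was low in 1 tumour, Ezh2-/- replicate 5, at 11.07 on the log2 scale, while the other 4 Ezh2-/- tumours lay between 11.36 and 11.45. In each the gap to the nearest tumour exceeded the 95% limit of Dixon's test. These were 2 of 82 groups of 5 tumours examined over 41 genes, and chance alone marks about 1 in 20 groups. Among Ezh2-/- tumours, Hk1 was also lowest in replicate 5, at 6.94. The mean log2 level of the 13 enzymes was lowest in replicate 5 of each genotype, at 8.30 in Ezh2-/- and 8.27 in Ezh2+/+. Not every enzyme followed this, as Ldha was highest in Ezh2-/- replicate 5, at 6.49. Nor was the low mean particular to the enzymes. In replicate 5 of Ezh2-/- and Ezh2+/+ tumours the mammary epithelium markers were also lowest, at 8.67 and 8.64. The further oxygen sensing genes were lowest there too, at 6.98 and 6.70. The 21 other oxygen-regulated genes had their lowest mean in replicate 5 only among Ezh2+/+ tumours. The cause of the low values in replicate 5 was not tested.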

How the results depend on the processing

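Tpi1, Pgam1, Pdk1 and Egln3 were called lower under all 11 alternatives other than leaving out tumours and in all 10 fits without 1 tumour. Across the 10 fits without 1 tumour, the genes called over all genes were 748 to 2519 higher (1617 with all tumours) and 983 to 1920 lower (1676). The other oxygen-regulated genes had 0 to 1 higher and 2 to 6 lower, the further glycolysis genes 0 to 2 higher, the further oxygen sensing genes 0 to 2 higher and 0 to 1 lower, and the further oxygen-regulated genes 0 to 1 higher. In these fits the sign turned for Hk2 (log2 fold changes -0.18 to 0.16), Pfkl (-0.050 to 0.23), Aldoc (-0.12 to 0.29), Pkm (-0.097 to 0.014), Hif1a (-0.20 to 0.0061), Car12 (-0.37 to 0.0049), Higd1a (-0.36 to 0.011), P4ha2 (-0.16 to 0.10) and Mxi1 (-0.45 to 0.0090), and no turned value was called.

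Median centring moved the median over all genes from 0.026 to 0.20 (log2) and gave 5219 genes higher and 927 lower, 84.9% of calls higher against 49.1% as deposited. It called 1 enzyme and 1 other oxygen-regulated gene higher, 2 other oxygen-regulated genes lower, and 8 further glycolysis, 4 further sensing and 2 further oxygen-regulated genes higher, with medians of 0.32 for the further glycolysis and 0.32 for the further sensing genes. Hif1a was then at 0.053, Pkm at 0.12, Car12 at 0.020 and P4ha2 at 0.16. Quantile normalization gave 882 genes lower, 60.3% of calls higher, 0 further glycolysis genes and 1 further sensing gene higher, Hk2 at -0.073, Pkm at 0.028 and P4ha2 at 0.040. Cyclic loess gave 996 genes lower, 0 further glycolysis genes higher, Hk2 at -0.12, Pkm at 0.015 and Ldha at -0.0057. The methods' own test after adjustment gave 862 genes higher, 2 other oxygen-regulated genes lower, 1 further glycolysis and 1 further sensing gene higher and 1 further oxygen-regulated gene lower. Without adjustment it gave 3572 higher and 3321 lower genes with 3 further glycolysis genes lower, 2 further sensing genes higher and 1 lower, and 1 further oxygen-regulated gene higher and 5 lower. Array weights gave 2434 genes higher, 1 other oxygen-regulated gene higher, 1 further glycolysis gene lower, 1 further sensing gene higher and 1 lower, and 1 further oxygen-regulated gene higher and 5 lower. Leaving out the 40% dimmest genes gave 535 genes lower and no value for Pgam2, and testing all probe sets gave 4415 lower. Without Ezh2+/+ replicates 1 and 4, 1 other and 2 further oxygen-regulated genes were higher and 2 other oxygen-regulated genes lower. The log2 fold change was then 0.021 for Pfkp, 0.049 for Pkm, 0.015 for Egln1, 0.077 for Car9, 0.14 for Car12, 0.095 for Higd1a, 0.12 for P4ha1, 0.27 for P4ha2, 0.21 for Ddit4 and 0.13 for Mxi1. Without Ezh2-/- replicates 1 and 5, 1 enzyme, 1 other oxygen-regulated and 2 further sensing genes were higher, 2 other oxygen-regulated genes and 1 further glycolysis gene lower and 0 further glycolysis genes higher, with Pfkp at 0.0023, Pkm at 0.023, Hif1a at 0.046, Car12 at 0.029 and Pgam2 at -0.027. The cause of these shifts was not tested.

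With the replicate number as a block, 2552 genes were higher, among them 1 enzyme (Pfkm), 1 other oxygen-regulated gene (Epas1) and 2 further sensing genes, and 4 further oxygen-regulated genes were lower. The block was not used as the main design, because neither the labels nor the methods tie same-numbered tumours to each other. Their deviations from the genotype means correlated at -0.042 to 0.34 over genes, above 0.1 in 3 of 5 pairs, and 2 of 5 pairs correlated best with their own number, so that a shared factor is neither shown nor shown to be absent. The block ended the call of Bpgm. Among the 41 genes examined one by one, 419 of 450 values under the other planned settings and 350 of 410 without 1 tumour kept their direction and their side of the threshold. The spread of 5 tumours a genotype limits what could be called, most of all for genes such as Adm and Vegfa that vary widely among Ezh2+/+ tumours.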
